A study of Homo sapiens with 8 samples.

Results

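The genes examined were 9 genes of B-cell receptor signalling and of the B-cell surface: MS4A1, CD79A, CD79B, CD22, SYK, BTK, BLNK, LYN and PTPN6. They were taken by name, as every probe whose annotated transcript maps to one of them, which gave 1 probe per gene, or 9 of the 41000 probes on the array and 9 of the 16557 gene symbols that could be assigned. L1236 is a human cell line derived from Hodgkin lymphoma, a tumour of B-cell origin, and is rich in the microRNA miR-155. The cells were transduced with the empty retroviral vector pMSCV-PIG (EV) or with the same vector carrying a miR-155 sponge. The sponge is a decoy transcript with miR-155 sites, meant to draw the microRNA from its own targets. The study proposes that it did not bind all of the abundant miR-155 in this line. In both populations the GFP+ cells were sorted. From each population, total cellular RNA (T) and the RNA precipitated with an antibody against Ago2 (IP), the Argonaute protein that holds microRNAs and the transcripts they bind, were hybridised. Each of the 4 RNA samples was labelled with Cy3 and with Cy5 on 4 two-colour Agilent arrays, and the IP and T fractions of 1 population always shared an array. Both populations are therefore 1 sorted pool each of a single cell line, every group holds 1 RNA sample, and no difference between groups could be tested. The error given is the SD between both orientations of an array pair (IP in Cy5 with T in Cy3, and the reverse), or between the 2 dyes where a fraction is compared between EV and sponge cells. It holds no variation between cultures or precipitations. In RNA from a whole population, a transcript missing from some cells and a lower level in all of them cannot be told apart.

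The B-cell receptor is a membrane immunoglobulin held together with a signalling dimer of CD79A and CD79B. When antigen binds, Src family kinases such as LYN phosphorylate the tails of that dimer, the kinase SYK docks there, and the adaptor BLNK then brings the kinase BTK to its substrates upstream of calcium, RAS and NF-κB signalling. CD22, an inhibitory surface lectin, and PTPN6 (SHP-1), the phosphatase it recruits, restrain the signal, and MS4A1 (CD20) is a surface antigen of mature B cells. Hodgkin tumour cells are known for having lost much of this B-cell programme.

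The microRNA that the sponge binds is shown first, since the comparison of sponge and EV cells rests on it. Its mature sequence (RefSeq, GRCh38.p14, chr21:25573983-25574006, + strand) is given with the seed, bases 2 to 8, in capitals, the stretch with which a microRNA pairs with its targets.
miR-155-5p: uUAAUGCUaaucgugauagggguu

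Promoter windows of the 250 bases before the annotated start were held by the RefSeq table (GRCh38.p14) for 6 of the 9 genes. Shown are CD79A (chr19:41877029-41877278, + strand) and BLNK (chr10:96271570-96271819, - strand), which had measurable transcripts, and CD22 (chr19:35328937-35329186, + strand) and BTK (chrX:101390797-101391046, - strand), which did not, each written along the strand of its gene. Capitals mark matches, on either strand, to the PU.1 type ETS motif AGGAAGT or the E-box CAGGTG.
CD79A: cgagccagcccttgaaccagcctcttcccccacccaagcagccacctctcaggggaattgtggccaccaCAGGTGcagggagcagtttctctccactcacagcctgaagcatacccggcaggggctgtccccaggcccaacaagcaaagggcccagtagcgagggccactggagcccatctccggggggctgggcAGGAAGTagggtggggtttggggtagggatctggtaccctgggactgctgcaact
BLNK: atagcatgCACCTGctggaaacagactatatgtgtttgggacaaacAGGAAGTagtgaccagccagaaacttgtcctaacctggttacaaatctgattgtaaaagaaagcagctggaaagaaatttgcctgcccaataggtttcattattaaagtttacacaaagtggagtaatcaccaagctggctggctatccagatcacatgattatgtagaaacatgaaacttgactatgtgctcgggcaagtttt
CD22: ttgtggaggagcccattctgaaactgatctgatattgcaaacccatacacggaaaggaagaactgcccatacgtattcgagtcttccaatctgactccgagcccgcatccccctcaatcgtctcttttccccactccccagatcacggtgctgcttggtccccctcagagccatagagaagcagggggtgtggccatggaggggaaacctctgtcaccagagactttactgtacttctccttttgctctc
BTK: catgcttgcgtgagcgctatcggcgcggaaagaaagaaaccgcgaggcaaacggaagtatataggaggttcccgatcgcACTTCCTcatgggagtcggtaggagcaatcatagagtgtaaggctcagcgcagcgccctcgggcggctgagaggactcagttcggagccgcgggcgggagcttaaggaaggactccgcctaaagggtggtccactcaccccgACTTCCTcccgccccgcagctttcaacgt

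The PU.1 type motif had 1 match in the CD79A window, 1 in that of BLNK and 2 in the BTK window that is shown. The other BTK window, which is not shown, held none. At least 1 match was present in 7.01% of 35116 promoter windows of that length. The E-box had 1 match in each of the CD79A and BLNK windows, and 17.5% of all windows held it. Matches were not limited to measurable genes. Of the windows that are not shown, 1 of the 3 of SYK, which was not measurable, held 2 PU.1 type matches and 1 E-box, and 1 of the 2 of PTPN6, which was, held 1 and 3. The octamer ATGCAAAT, the motif of the OCT factors that is known from immunoglobulin promoters, was found in 1.63% of all windows and in none of the 10 windows of these genes. CD22 had no match to any of the 3 motifs in this window. These letters describe the windows only.

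The scanner software flags a spot as well above background when its signal clearly exceeds the local background. Between 61.0% and 65.7% of the spots carried this flag in 7 of the 8 channels, and 54.1% in the Cy5 channel of the sponge T fraction, which stands apart. Of all probes, 51.5% were well above background in all 8 channels and 29.9% in none. A probe was kept for comparisons when at least 4 channels had it well above background and its Cy3 and Cy5 values lay within 2-fold in each RNA sample, which left 22470 probes (54.8%). All 6 Hodgkin tumour cell markers (TNFRSF8, the CD30 antigen, FUT4, CCL17, FSCN1, IRF4 and TRAF1) had a probe well above background in all 8 channels. Another probe of TRAF1 was so in 0 channels. Of 6 T cell markers only CD3E had a probe above background in all channels. CD2 was above background in 7 channels, CD247 in 5, TRAT1 in 2, and CD3D and CD3G in none. Of 5 NK cell markers none had such a probe, but NKG7 and KLRF1 were above background in 7 channels each, and NCAM1, KLRD1 and GNLY in none. In the myeloid list of 7 genes CD14, CSF1R and ITGAM were above background in all channels and LYZ and MPO in none. CD33 was above background in 4 channels with 1 probe and in 3 with the other, and FCGR1A had no probe.

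The 9 genes separated completely by this flag. CD79A, CD79B, LYN, BLNK and PTPN6 were well above background in all 8 channels and were kept. MS4A1, CD22, SYK and BTK were well above background in 0 of 8 channels. There were thus 5 genes (55.6%) detected everywhere, beside 51.5% of all probes on the array, and 4 (44.4%) detected nowhere, beside 29.9%, and no gene was in between. Not measurable were the CD20 antigen, the inhibitory lectin and the kinases SYK and BTK, whereas the receptor dimer, the Src kinase, the adaptor and the phosphatase gave clear signals.

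**Figure D1:**
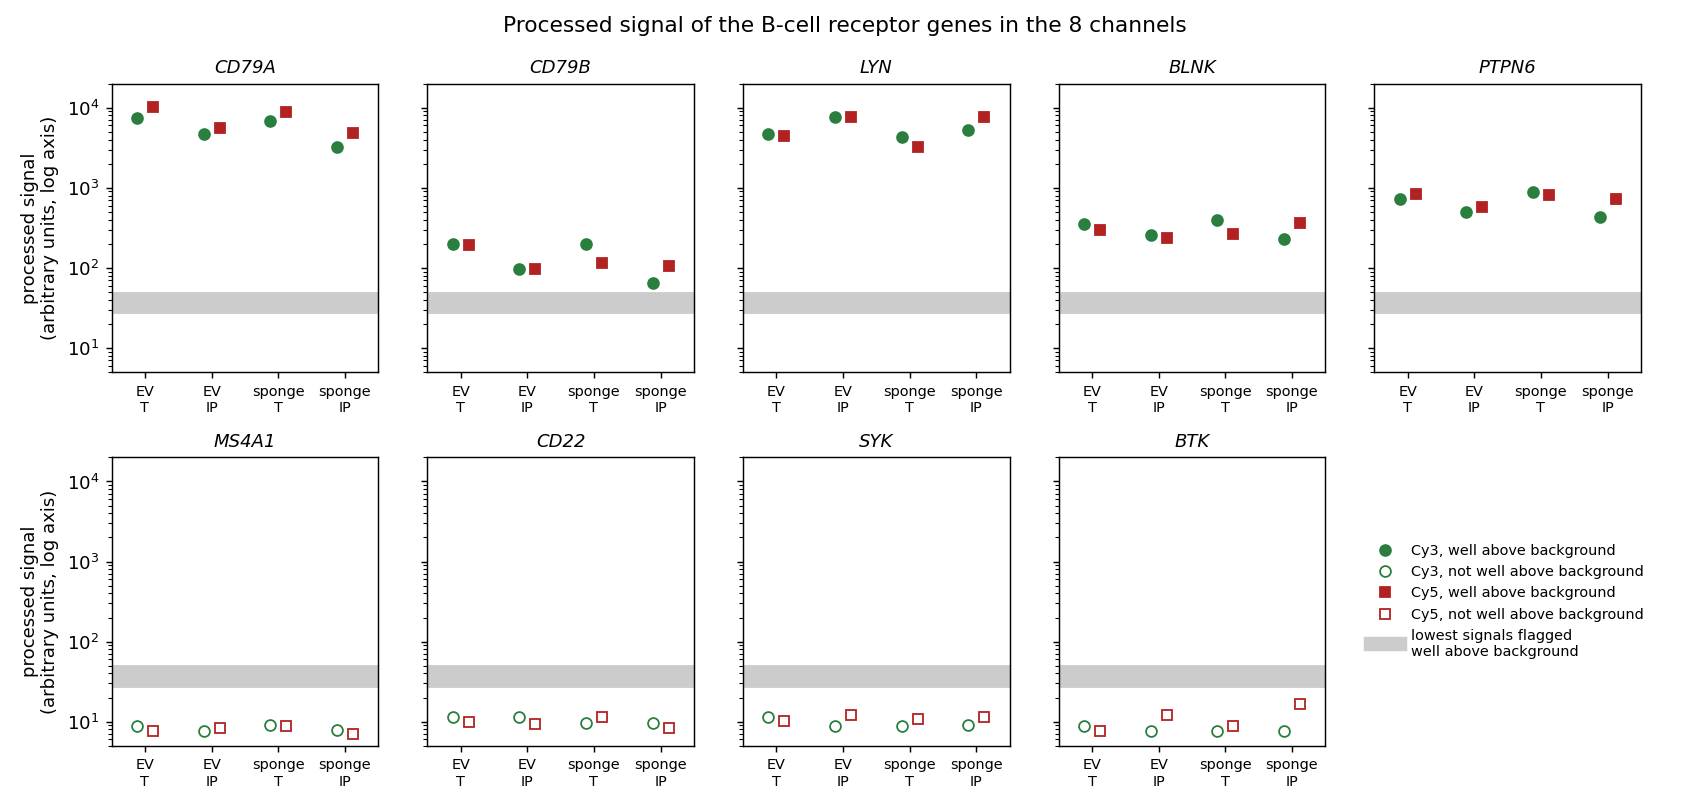
Processed signal (arbitrary units, log axis) of the 9 genes in the T and IP fractions of EV and sponge cells, with Cy3 as circles and Cy5 as squares; filled symbols are well above background, and the grey band spans the lowest signals with that flag in the 8 channels (27.0 to 49.0). The upper 5 genes lie above the band in every channel and the lower 4 lie below it in every channel, with MS4A1 between 7.04 and 9.04 and BTK reaching 16.8.

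The signals of the undetected genes were set against the negative control spots, whose channel medians lay between 8.00 and 11.0. Of the 32 values of these 4 genes in the 8 channels, 30 did not exceed the 95th percentile of the negative controls in the same channel. The 2 that did were CD22 in EV IP in Cy3 (11.3 against 10.8) and BTK in sponge IP in Cy5 (16.8 against 12.9). MS4A1 (probe A_23_P116371) read 8.77 in Cy3 and 7.69 in Cy5 in the EV T fraction, 7.55 and 8.26 in EV IP, 9.04 and 8.78 in sponge T and 7.79 and 7.04 in sponge IP. CD22 (A_23_P209055) read 11.6 and 9.87 in EV T, 11.3 and 9.45 in EV IP, 9.72 and 11.4 in sponge T and 9.64 and 8.28 in sponge IP. For neither of these B-cell surface antigens did both dyes of an RNA sample lie above the 95th percentile of the negative controls.

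SYK (A_23_P9255) was printed in 10 spots per array, so its 8 channel values rest on 80 spot readings, 0 of which were well above background. The channel values lay between 8.72 and 12.0. The single readings had a median of 9.10 and reached 41.9 at most. For this kinase, which is central to receptor signalling, no signal was thus detectable in either fraction despite the repeated spots. BTK (A_23_P137139) read 8.78 and 7.65 in EV T, 7.56 and 12.3 in EV IP, 7.70 and 8.77 in sponge T and 7.71 and 16.8 in sponge IP, in the order Cy3 and Cy5. The higher values were the IP fractions in Cy5, and the same RNA samples in Cy3 did not show them. With the less strict flag, positive and significant against the local background, MS4A1 and CD22 passed in 1 channel each, SYK in 2 and BTK in 4. No ratio is given for these 4 genes, as both sides of every comparison lie below the limit of measurement. One probe per gene was available, so a transcript form that the probe misses cannot be told apart from an absent transcript.

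Related kinases that were looked up after the values of SYK and BTK had been seen gave little more signal. ZAP70, the other member of the SYK family, had 1 probe above background in 0 channels and 1 in 1 channel. Of the TEC family, to which BTK belongs, TEC itself was above background in 4 channels with 1 probe and in 2 with the other. BMX and TXK were above background in 0 channels. None of these probes was kept.

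CD79A (A_23_P107735), the alpha chain of the signalling dimer, gave processed signals of 7346 in Cy3 and 10321 in Cy5 in the EV T fraction and of 4661 and 5628 in EV IP. In the sponge cells it read 6828 and 8931 in T and 3219 and 4798 in IP. All T signals exceeded all IP signals, in both populations. The log2 IP/T, computed after quantile normalisation over the 8 channels, was -0.76 ± 0.55 in EV cells (-0.37 where IP carried Cy5 and -1.15 where it carried Cy3), which is 1.70-fold more in T than in IP. In sponge cells it was -0.97 ± 0.65 (-0.51 and -1.43), or 1.95-fold. The direction was the same on all 4 arrays, but the ratio on the arrays with IP in Cy3 was larger than on those with IP in Cy5. The normalised T values differed by more than 1.5-fold between the dyes in sponge cells, so CD79A was lost when the dyes had to lie within 1.5-fold.

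CD79B (A_23_P207201), the beta chain, gave low signals that were all well above background. It read 198 in Cy3 and 194 in Cy5 in EV T, 96.3 in both dyes in EV IP, 199 and 116 in sponge T and 65.0 and 105 in sponge IP. Every T signal lay above every IP signal, as for CD79A. EV cells had a log2 IP/T of -1.03 ± 0.0027, with -1.03 in both orientations (2.05-fold more in T), and sponge cells one of -0.97 ± 0.04 (-0.94 and -1.0; 1.95-fold). CD79B was therefore the 1 member that passed 2-fold in EV cells, in the direction of T, where 19.0% of all kept probes passed, and none passed in sponge cells, where 17.8% did. No member was 2-fold or more higher in IP, beside 17.5% of the kept probes in either population. The agreement between the orientations of CD79B did not carry over to another background treatment. After normexp correction, which adds an offset of 50 to all signals, and quantile normalisation its log2 IP/T was -0.22 in EV and -0.16 in sponge cells.

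LYN (A_23_P147431), the Src family kinase that starts the signal and can also restrain it, was the only member with more signal in the IP fraction. It read 4729 in Cy3 and 4423 in Cy5 in EV T and 7694 and 7726 in EV IP. In sponge cells it read 4362 and 3238 in T and 5340 and 7602 in IP. All IP signals exceeded all T signals. EV cells had a log2 IP/T of 0.76 ± 0.06 (0.72 and 0.81; 1.69-fold) and sponge cells one of 0.77 ± 0.06 (0.81 and 0.74; 1.71-fold). It stayed between 0.68 and 0.81 in EV cells and between 0.69 and 0.81 in sponge cells under every alternative processing tried, including each dye and each orientation alone. The enrichment of LYN in the Ago2 fraction was thus larger than the spread between the labellings but under the 2-fold mark.

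BLNK (A_24_P64344), the adaptor, read 350 in Cy3 and 293 in Cy5 in EV T and 257 and 237 in EV IP. In sponge cells it read 396 and 263 in T and 230 and 360 in IP. In contrast to the other measured genes, the fractions of BLNK overlapped in the sponge cells on this scale. Its log2 IP/T came to -0.41 ± 0.25 in EV (-0.59 and -0.23; 1.33-fold more in T) and to -0.22 ± 0.09 in sponge cells (-0.16 and -0.28; 1.17-fold). After normexp and quantile normalisation these values shrank to -0.13 and -0.09.

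PTPN6 (A_23_P162486), the phosphatase, read 734 in Cy3 and 848 in Cy5 in EV T and 495 and 574 in EV IP. In sponge cells it read 889 and 803 in T and 433 and 722 in IP. The T signals were above the IP signals in both populations. Its log2 IP/T came to -0.59 ± 0.29 in EV (-0.38 and -0.80) and to -0.63 ± 0.45 in sponge cells (-0.31 and -0.94; 1.55-fold more in T). After normexp and quantile normalisation it was -0.25 and -0.30.

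**Figure D2:**
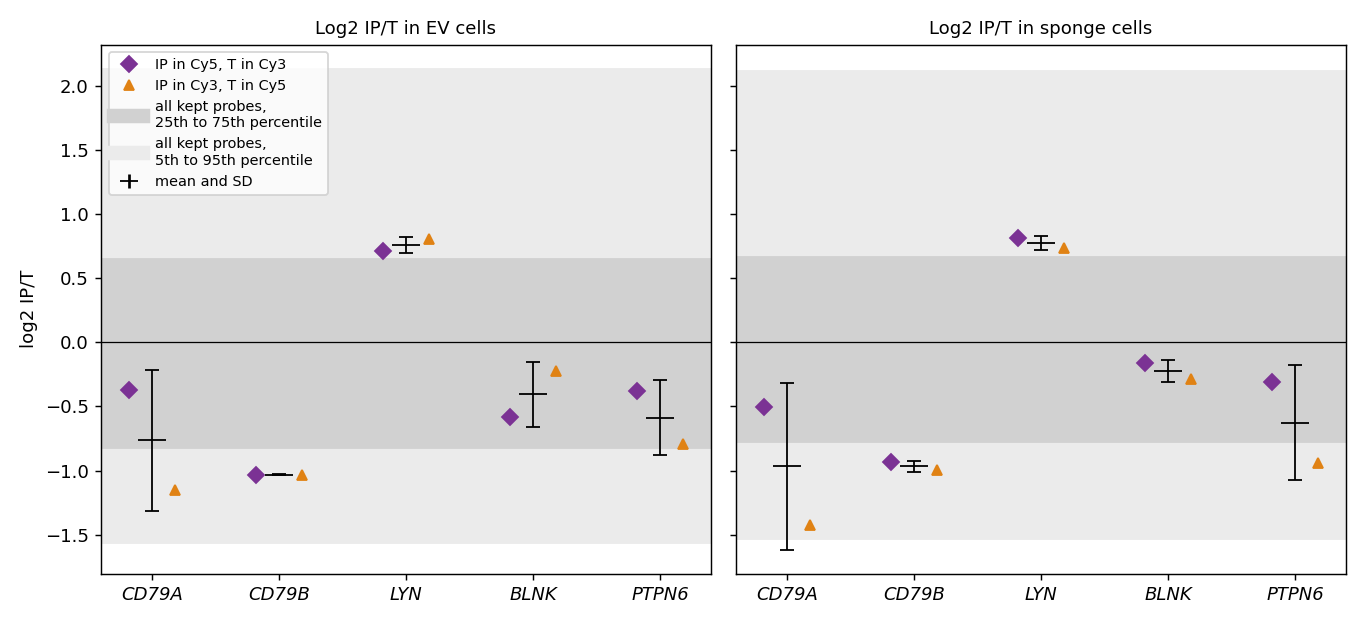
Log2 IP/T (y axis) of the 5 measured genes in EV cells (left) and sponge cells (right); diamonds are the arrays with IP in Cy5, triangles those with IP in Cy3, bars the mean and SD over both, and the grey bands the middle of all 22470 kept probes. LYN lies above 0 with 0.76 and 0.77, the other 4 genes lie below 0 in both orientations, and all 5 means are within the 5th to 95th percentile of the kept probes (-1.57 to 2.13 in EV cells).

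Of the measured members, 4 were thus lower in IP than in T and 1 was higher. The median log2 IP/T of all kept probes was -0.16 in EV and -0.13 in sponge cells. Most kept probes were lower in IP too, as 55.9% lay below 0.0018 in EV cells and 54.2% below -0.018 in sponge cells. The share of all kept probes whose T and IP signals do not overlap was not computed. The log2 IP/T of all 5 members exceeded its SD in both populations. That is common, since 85.0% of the kept probes did so in EV cells and 81.2% in sponge cells.

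LYN and PTPN6 were printed in 10 spots per array, which separates the error of a spot from that of a labelling. The 10 spots of LYN had a mean log2 IP/T, before normalisation between arrays, of 0.71 and 0.80 in EV cells (IP in Cy5 and in Cy3) and 0.80 and 0.72 in sponge cells. Their SD within an array lay between 0.057 and 0.084. For LYN the arrays of different dye orientation therefore lay about as close together as the spots of 1 array. The 10 spots of PTPN6 had means of -0.35 and -0.78 in EV cells and -0.30 and -0.89 in sponge cells, with SDs between 0.057 and 0.109. The spots of PTPN6 did not overlap between the orientations, and its spread between orientations was larger than that between spots. For the genes with 1 spot per array, the error of a spot and that of a labelling cannot be told apart.

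**Figure D3:**
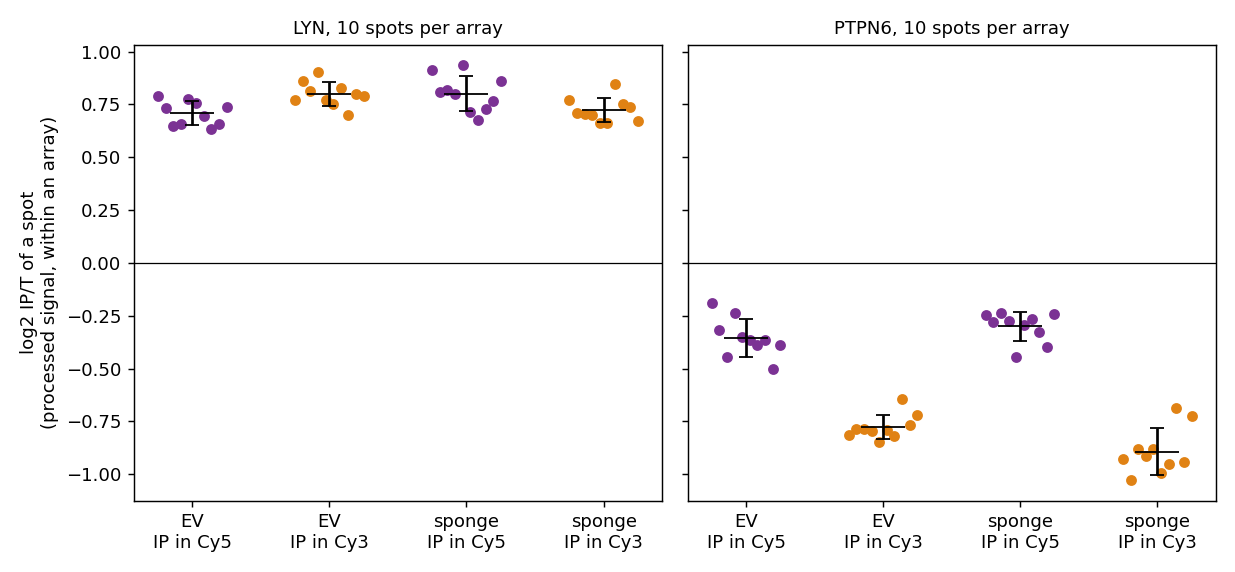
Log2 IP/T of each of the 10 spots of LYN (left) and PTPN6 (right) on each of the 4 arrays, from processed signals without normalisation between arrays; purple points are arrays with IP in Cy5, orange points arrays with IP in Cy3, and bars the mean and SD over spots. The LYN spots lie between 0.63 and 0.93 on all arrays, whereas the PTPN6 spots form separate ranges by orientation, with means of -0.35 and -0.30 for IP in Cy5 and of -0.78 and -0.89 for IP in Cy3.

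After quantile normalisation, PTPN6 and BLNK were higher in the sponge than in the EV cells in both fractions and with both dyes, and the other 3 measured genes moved little. The normalised log2 value of PTPN6 in the T fraction was 9.37 in Cy3 and 9.62 in Cy5 in EV cells against 9.69 and 10.05 in sponge cells. In the IP fraction it was 8.82 and 8.99 against 9.11 and 9.38. Within each fraction the sponge values of PTPN6 lay above both EV values. The difference was 0.38 ± 0.08 in T (0.32 in Cy3 and 0.44 in Cy5; 1.30-fold) and 0.34 ± 0.07 in IP (0.29 and 0.39; 1.26-fold). In T 95.3% and in IP 94.7% of the kept probes had a lower value. The size depended on the background treatment, as it was 0.20 in T and 0.15 in IP after normexp and quantile normalisation. Before normalisation the direction of PTPN6 depended on the array. Its processed signal was higher in sponge than in EV cells in Cy3 T (889 against 734) and Cy5 IP (722 against 574). It was lower in Cy5 T (803 against 848) and Cy3 IP (433 against 495). Both lower channels belong to the same array of the sponge cells, on which every measured gene read lower than in the same channels of EV cells. The Cy5 channel of the sponge T fraction is the one with the fewest detected spots, and in Cy3, which leaves it out, the difference was 0.32.

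BLNK had normalised log2 values in T of 8.33 in Cy3 and 8.11 in Cy5 in EV cells against 8.53 and 8.44 in sponge cells. In IP it had 7.88 and 7.74 against 8.15 and 8.37. As for PTPN6, the sponge and EV values of a fraction did not overlap. The share of all kept probes without such overlap was not computed. The difference was 0.27 ± 0.09 in T (0.20 and 0.33; 1.20-fold) and 0.45 ± 0.25 in IP (0.28 and 0.63; 1.37-fold), above 90.3% and 97.9% of the kept probes. After normexp and quantile normalisation it was 0.094 in T and 0.14 in IP. The processed signals of BLNK were divided in the same way, with higher values in sponge cells in Cy3 T (396 against 350) and Cy5 IP (360 against 237) and lower ones in Cy5 T (263 against 293) and Cy3 IP (230 against 257). BLNK and PTPN6 were thus higher by less than 1.5-fold in each fraction. At 1.5-fold with the same sign in both dyes, 1.37% of the kept probes were higher and 1.56% lower in T of sponge cells, and 0.859% were higher and 0.645% lower in IP, and no member was among them.

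PTPN6 and LYN are also made by other blood cells, whereas the RNA here came from sorted pools of a single cell line. The summed processed signal of the myeloid markers in T was 1198 to 1220 in EV cells and 971 to 1066 in sponge cells, and in IP it was 1821 to 1877 and 1068 to 1363. That of the NK cell markers was 380.0 to 411 and 302 to 350.0 in T and 201 to 214 and 135 to 218 in IP. The T cell markers, with CD3D and CD3G at background, summed to 352 to 371 and 364 to 481 in T and to 329 to 379 and 289 to 352 in IP. Before normalisation the myeloid sums were thus lower in sponge cells in both fractions, and the direction of PTPN6 and BLNK depended on the array. After normalisation the myeloid markers with a kept probe differed in direction. CD14 was higher in sponge cells (0.39 ± 0.38 in T and 0.21 ± 0.0069 in IP) and CSF1R was lower (-0.12 ± 0.08 and -0.55 ± 0.21). The part of the marker genes in the differences of PTPN6 and BLNK was not tested.

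CD79A, CD79B and LYN differed between the populations by less than or about as much as between the dyes. In T the difference was 0.10 ± 0.21 for CD79A, -0.12 ± 0.22 for CD79B and 0.0011 ± 0.087 for LYN, each with opposite signs in Cy3 and Cy5. In IP it was -0.099 ± 0.11 for CD79A, -0.057 ± 0.26 for CD79B and 0.015 ± 0.033 for LYN. A difference of these genes between sponge and EV cells was therefore not detectable beyond the spread between the dyes. The difference exceeded its SD for BLNK and PTPN6 alone in each fraction, beside 50.6% of all kept probes in T and 64.6% in IP.

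**Figure D4:**
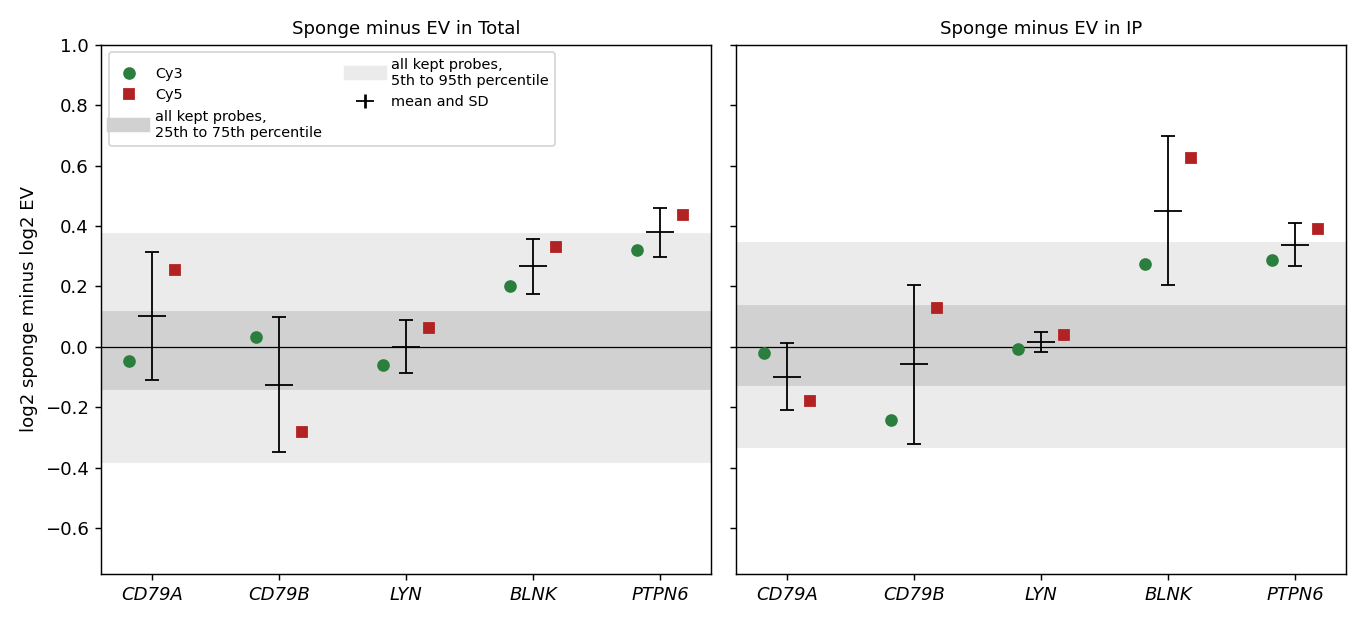
Sponge minus EV on the normalised log2 scale (y axis) for the 5 measured genes in T (left) and IP (right); circles are Cy3, squares Cy5, bars the mean and SD over both dyes, and grey bands the middle of all kept probes. BLNK and PTPN6 lie above 0 with both dyes in both fractions, while CD79A, CD79B and LYN lie on or around 0.

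The log2 IP/T of the 5 genes differed little between sponge and EV cells. Sponge minus EV, it was -0.20 ± 0.10 for CD79A, 0.067 ± 0.040 for CD79B, 0.014 ± 0.12 for LYN, 0.18 ± 0.34 for BLNK and -0.040 ± 0.15 for PTPN6. The middle of the kept probes spanned -0.36 to 0.42 from the 5th to the 95th percentile, with a median of 0.017. Only the values of CD79A and CD79B exceeded their SD, as did 53.1% of the kept probes, and both turned in sign when Cy3 labels alone were used (0.025 and -0.28). The difference of PTPN6 had nearly the same size in T and IP, so its ratio hardly moved.

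The gene whose 4 RNA sample values, centred on their mean, lay closest to those of CD79A was USP54, at a root mean square distance of 0.010 on the log2 scale, followed by RPAP1 (0.014). For CD79B these were TGFB1 (0.0079) and EIF6 (0.015), for LYN ATP6AP2 (0.012) and PRELID3B (0.014), for BLNK DDAH2 (0.023) and IFT88 (0.029), and for PTPN6 DYSF (0.012) and KDM3A (0.020). With only 4 values per gene such closeness is common. Of 15625 other named probes, 735 lay within 0.1 of CD79A, 775 within 0.1 of CD79B and 795 within 0.1 of LYN. BLNK with 147 and PTPN6 with 205 had fewer probes of like pattern.

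The wider pathway was described with a list of 115 further genes of B-cell receptor signalling and of the B-cell surface, each represented by the kept probe with the brightest mean signal. A probe was named for 105 of them, 93 were above background in at least 1 channel, and 79 (75.2%) had a kept probe, beside 67.7% of all named genes. Of the 105 genes, 12 (11.4%) were above background in no channel, beside 20.5% of all named genes, among them PRKCB, a form of protein kinase C, BANK1 and DOK2, adaptors, VAV3, an exchange factor, and CD72, an inhibitory receptor. The surface antigens CD38, CD53, CD180 and TNFRSF13B and the Fc receptor-like FCRL4 also belonged to this group. Like MS4A1, CD22, SYK and BTK, these genes belong to several steps of the pathway.

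In EV cells 18 of the 79 genes were 2-fold or more higher in IP and 10 were 2-fold or more lower, beside 17.5% and 19.0% of all kept probes. In sponge cells these were 16 and 9. The genes higher in IP include GAB1, whose T fraction was not well above background. Its bound was computed only after normexp correction and loess normalisation, with the offset of 50, and does not reach 2-fold there. Among the 77 genes with both fractions above background, 17 were higher and 10 lower in EV cells, and 15 and 9 in sponge cells. Over the list, log2 IP/T had a median of -0.06 in EV and of -0.21 in sponge cells. The dye filter by itself gives a gene past 2-fold in EV cells the same sign in both orientations there. In sponge cells all 28 genes past 2-fold in EV cells had that sign in both orientations, which the filter does not fix by itself. The share of all kept probes that do so was not computed. After normexp and quantile normalisation 6 genes passed 2-fold in the direction of IP and 3 in the direction of T in EV cells.

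By role, the RAS and ERK genes had the highest median log2 IP/T in EV cells, 0.89 over 10 genes, and PLC, PI3K and VAV the lowest, -0.85 over 12 genes. Members of a step could lie on opposite sides. Among the RAS and ERK genes, 4 were 2-fold or more higher in IP and 2 were 2-fold or more lower in EV cells. The lower ones were HRAS, a RAS protein (-1.72 ± 0.21 in EV and -1.66 ± 0.25 in sponge cells), and MAP2K2, the MEK2 kinase (-1.79 ± 0.16 and -1.69 ± 0.16). The direction of LYN, higher in IP, was not that of BLK, the B-lymphoid kinase of the same family, which had -1.47 ± 0.19 in EV and -1.42 ± 0.49 in sponge cells.

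Downstream of SYK and BTK, PLCG2, the phospholipase that they activate, was lower in IP (-1.49 ± 0.32), and PIK3CB, a catalytic subunit of PI3K, was higher (1.65 ± 0.38). PPP3R1, the regulatory subunit of calcineurin, had 1.58 ± 0.07. BCL10, which links protein kinase C to NF-κB together with MALT1, was higher in IP with 1.97 ± 0.47, and a second probe gave 1.34. Among the adaptors, DOK3, an inhibitory one, had 2.41 ± 0.66 in EV and 1.76 ± 0.60 in sponge cells, and CD2AP 1.52 ± 0.03. GAB1, a docking adaptor, was well above background in IP and not in T, so its IP/T is only a bound. After normexp correction, with its offset of 50, and loess normalisation this bound was at least 1.28-fold in EV and 1.16-fold in sponge cells. For T it took the lowest signal with the flag, or the measured signal where that was higher. With the reported processing the measured values of GAB1 gave 3.54 ± 0.45 in EV cells, and no bound was computed on that scale. CD83, a surface antigen of activated B cells, had 1.52 ± 0.06. Neither CD79 chain shared the direction of these IP-enriched genes. After normexp and quantile normalisation, several of these genes lay below 2-fold, with EV log2 IP/T values of 0.99 for DOK3, 0.75 for CD2AP, 0.42 for PIK3CB, 0.35 for GAB1, -0.37 for PLCG2 and -0.65 for BLK.

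**Figure D5:**
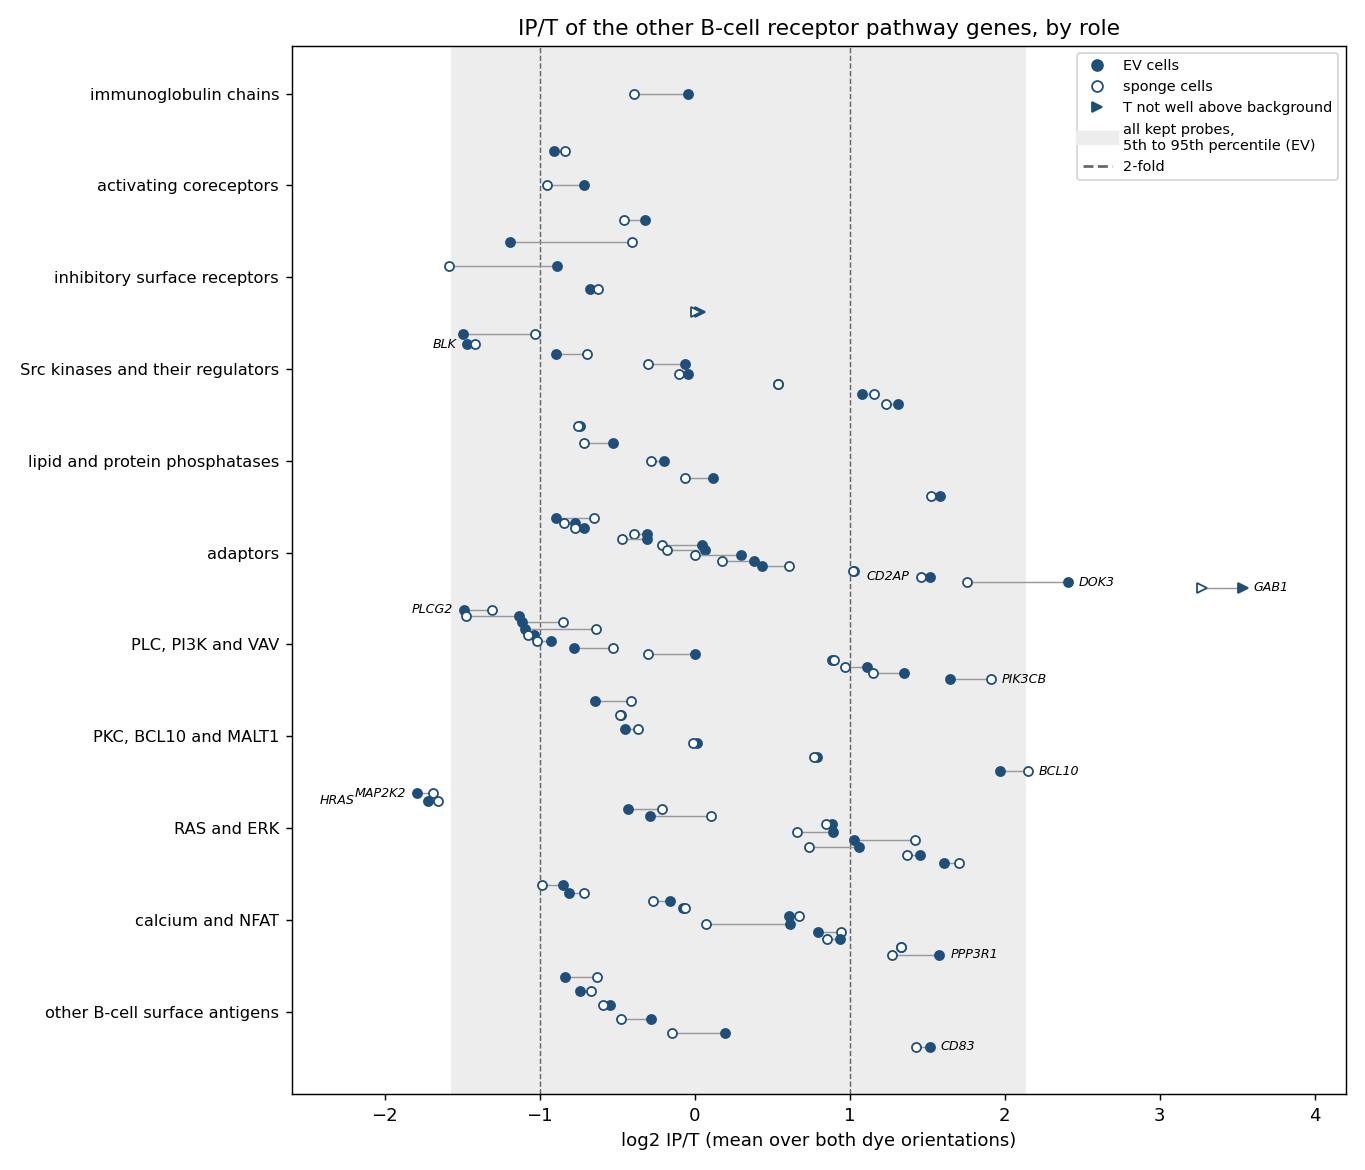
Log2 IP/T (x axis) of the 79 further pathway genes with a kept probe, by role (y axis); filled symbols are EV cells, open symbols sponge cells, dashed lines 2-fold, the grey band the 5th to 95th percentile of all kept probes in EV cells, and triangles genes whose T fraction was not well above background. Most EV and sponge values of a gene lie close together, 18 symbols lie right of the 2-fold line and 10 left of it in EV cells, and DOK3 lies farthest right of the genes measured in both fractions. The triangles stand at the measured ratio, for which only a bound holds.

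Between sponge and EV cells, none of the 79 pathway genes passed 1.5-fold with one sign in both dyes in IP. Of all kept probes, 0.859% were higher and 0.645% lower there. In T 2 pathway genes were higher, beside 1.37% of all kept probes, and none were lower, beside 1.56%. Of the 2 higher genes, CEACAM1, an inhibitory receptor, differed by 0.84 ± 0.34 in T (0.60 in Cy3 and 1.08 in Cy5). Another of its probes, above background in 6 channels and not kept, had -1.36 ± 1.14, and a further one was above background in 0 channels. After normexp and quantile normalisation 0 genes were higher by 1.5-fold or more in T, and CEACAM1 had 0.074. The difference of CEACAM1 shrank with that background treatment, as did those of BLNK and PTPN6. The median difference of the list was -0.01 in T and -0.0096 in IP.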

How the data were processed

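The 9 genes and the gene lists were chosen with earlier results of these data known. The authors extracted the arrays with Agilent Feature Extraction (version 10.7.3.1 per the file headers, 10.5.1.1 in the submitters' processing notes), which subtracts the local background, corrects for the dye and gives a processed intensity per spot and channel, and deposited these intensity values with flags for detection and outliers. The 8 deposited scanner files hold 4 distinct arrays, each given under both of its labelled samples. A deposited table of the whole series holds the authors' quantile normalised log2 values of 22282 probes, and was used as an alternative. The probes were named through RefSeq (GRCh38.p14) from the transcript accessions in the files, for names only, which matched 23958 of 41000 probes (58.4%). The array annotation is on hg18, and the position of a probe within a transcript was not used here.

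Outlier spots were dropped, spots of a probe were averaged on the log2 scale, and the 8 channels were quantile normalised. A channel counted as detected when at least 0.5 of the spots of a probe carried the flag. Ratios are differences of log2 values averaged over both dyes. The study also averaged the dyes, on a scale that its methods do not state. Groups of 1 RNA sample allow no test, so values are set beside those of all kept probes. Of the pathway list, up to 15 genes were named by the largest absolute log2 IP/T in EV cells among those past 2-fold with the same sign in both orientations of both populations, and up to 6 by the largest difference between sponge and EV cells among those past 1.5-fold with the same sign in both dyes. Results of some genes chosen by these rules are not reported here. For each measured gene the 2 most alike were named. The number of arrays limits the precision, and all arrays share a slide. The 14 alternatives covered detection, the dye filter, outlier spots, background correction, normalisation, the authors' values, single dyes and single orientations. For the normexp background correction (limma 3.58.1, R 4.3.3, offset 50) the median spot signal was used in place of the planned mean. The calculation was tested on simulated data, and other steps used Python 3.11.15 with numpy 2.4.6 and pandas 2.3.3.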

Additional observations from a re-analysis of the deposited data

Results flagged for a closer look

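None of the 5 measured genes, CD79A, CD79B, LYN, BLNK and PTPN6, had an IP/T that lay on one side of 0 in EV cells and on the other in sponge cells. Among the other pathway genes 2 did so with both dye orientations, and the share of all kept probes that did so was not computed. CBLB, a ubiquitin ligase that restrains receptor signalling, had log2 ratios of 0.05 ± 0.02 with the empty vector and -0.21 ± 0.11 with the sponge, a difference of -0.26 ± 0.09. MAP2K1, the MEK1 kinase, had -0.29 ± 0.16 with the empty vector and 0.10 ± 0.04 with the sponge, a difference of 0.39 ± 0.12. Both differences lay within the 5th to 95th percentile of the same difference over all kept probes, -0.36 to 0.42. With 1 RNA sample per group neither difference was tested.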

How the results depend on the processing

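No paired analysis was possible because each group is 1 RNA sample and the replicate numbers are its Cy3 and Cy5 labels, which were averaged. The directions of the log2 IP/T of CD79A, CD79B, LYN, BLNK and PTPN6 in both populations were the same in all 10 settings that can change their values, the reported one included. So were those of the sponge minus EV difference of BLNK and PTPN6 in both fractions. These settings are not independent. For sponge minus EV the single orientations reuse the single-dye values, and the authors' values are also quantile normalised. Sizes moved with normexp, and the cause was not tested. The change of IP/T turned for CD79A (0.025) and CD79B (-0.28) with Cy3 labels only, and its median over the pathway genes turned with Cy5 labels only (0.017). The less strict flag gave 6 detected members and the 1.5-fold dye filter 4 kept ones. Members lower in IP by 2-fold numbered 0 in EV cells with either normexp setting and 2 on arrays with IP in Cy3 only, and 1 in sponge cells with 75th percentile scaling, either dye alone or IP in Cy3 only. Pathway genes past 2-fold (higher, lower) were 9 and 2 in EV and 7 and 3 in sponge cells with normexp, loess and Aquantile, and 6 and 3 and 7 and 3 with normexp and quantile. Past 1.5-fold in T, 0 were higher with either normexp setting and 1 with the 1.5-fold dye filter, and 1 was lower with the less strict flag or detection in 1 channel. In IP 1 was lower with these same settings and 2 without the dye filter, and higher were 1 without the dye filter, 2 with 75th percentile scaling, and 1 with Cy5 labels only or IP in Cy5 only. The pathway median of log2 IP/T moved to -0.18 (detection in all 8 channels) and -0.25 (Cy3 only) in EV cells, and to -0.027 (loess), -0.094 (normexp and quantile) and -0.34 (IP in Cy3 only) in sponge cells. Signal over background limits CD79B most and gives no level for MS4A1, CD22, SYK and BTK.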
